A study of Mus musculus with 4 samples.

Results

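The Zfp genes are the mouse genes named zinc finger protein followed by a number. They were taken as every symbol of the form Zfp and digits in the deposited table, leaving out *Zfp36* and *Zfp541*, which gave 237 of 11598 genes, after 239 symbols had matched. Ribosome-protected fragments (RPFs), the stretches of mRNA covered by ribosomes, were sequenced (Ribo-seq) from spermatocytes at the leptotene and zygotene stages, which had been sorted from 12 dpp testes into 2 control and 2 *Eef1g*-cKO libraries. In *Eef1g*-cKO mice a floxed *Eef1g* allele made on the C57BL/6J background had lost exons 2 to 7 in male germ cells through *Stra8*-GFPCre, and controls were littermates, called wild type in the sample labels. By the paper, the Cre induces recombination from type A1 spermatogonia onward, a stage before meiosis. The labels do not say how many mice stood behind a library, so p-values measure the spread between these libraries, which may be technical.

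A C2H2 zinc finger is a short fold in which a pair of cysteines and a pair of histidines hold a zinc ion, and strings of such fingers read DNA, RNA or other proteins. Many Zfp proteins carry a KRAB box in front of the fingers, which binds the corepressor TRIM28 and through it the histone methyltransferase SETDB1 and HP1 proteins, and this arm is known for silencing retroelements and for guarding imprints. KRAB genes stand in clusters of near copies, while Zfp genes without the box include old single genes with roles in chromatin, RNA and the ribosome.

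The letters of the family show both parts. The first pair below is the KRAB A box of *Zfp160*, the member with the largest increase, and of *Zfp869*, which had no read in *Eef1g*-cKO. Both are coding strand from the GRCm38 genome, 5′ to 3′, at chr17:21020084-21020167 (plus strand) and chr8:69708370-69708453 (minus strand). Capitals mark the codons of the residues, out of 12 searched, that matched the box.
Zfp160: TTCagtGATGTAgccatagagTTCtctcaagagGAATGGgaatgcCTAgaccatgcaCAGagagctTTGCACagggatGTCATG
Zfp869: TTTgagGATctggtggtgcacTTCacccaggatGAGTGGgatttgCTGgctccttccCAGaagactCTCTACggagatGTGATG

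One finger of each of the 4 members called by adjusted p is shown next, to let the repeated unit be seen. They lie at chr17:21025631-21025693 (plus), chr13:64145534-64145596 (minus), chr5:31200518-31200580 (minus) and chr8:69707316-69707378 (minus), in that order, and capitals mark the codons of the cysteines and histidines.
Zfp160: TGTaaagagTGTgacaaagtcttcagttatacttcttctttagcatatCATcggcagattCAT
Zfp367: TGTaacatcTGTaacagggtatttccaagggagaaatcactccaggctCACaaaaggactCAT
Zfp513: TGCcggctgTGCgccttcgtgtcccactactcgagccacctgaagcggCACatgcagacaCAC
Zfp869: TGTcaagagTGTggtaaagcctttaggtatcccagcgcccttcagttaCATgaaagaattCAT

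Because fingers repeat, a read of about 30 bases can fit more than one member. The stretch below, at chr17:23176266-23176295 (minus) in *Zfp40*, has the linker between fingers in capitals and was held by 6 of the 236 members with a coding sequence, *Zfp40*, *Zfp51*, *Zfp53*, *Zfp386*, *Zfp932* and *Zfp942*.
Zfp40: aattcatACTGGAGAGAAACCTtacaaatg

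Of the 460088 different 30-base stretches in the members' coding sequences, 2690 occurred in more than 1 member. Over 5% of the stretches were shared with another gene in 61 members, and at most 5% in 175. How reads that fit several genes were counted is not given in the sources used here, so the values of the first set are uncertain.

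The libraries differed in depth. The FPKM, the read count scaled to gene length and depth, rested on 2479504 and 1384282 reads in control and on 223906 and 407979 in *Eef1g*-cKO, and *Eef1g* itself had 107 and 58 control reads against 0 and 4. The median over Zfp genes was 30 and 16 control reads against 2 and 4, and 0, 4, 59 and 35 of the 237 members were listed at 0 in the same order. More than 3 reads in an *Eef1g*-cKO library were found for 135 members, at most 3 in both for the other 102, and none in both for 22. Markers of leptotene and zygotene spermatocytes were present, 8 of 8 listed, and summed to 1463 and 1201 FPKM in control against 3541 and 3086 in *Eef1g*-cKO. Spermatogonial markers, also 8 of 8, summed to 1484 and 1752 against 247 and 222. Pachytene markers, 3 of 6 in the table, summed to 190 and 139 against 250 and 304, and spermatid markers, 2 of 4, to 7.38 and 40.0 against 0 and 15.1. Sertoli markers, 6 of 8, gave 101 and 39.5 against 42.4 and 20.4, with *Gata4* at 0 in both *Eef1g*-cKO libraries. Leydig markers, 3 of 5, gave 3.10 and 5.82 against 2.23 and 1.22, with *Hsd3b1* and *Cyp11a1* at 0, and peritubular markers, 2 of 3, gave 34.1 and 19.4 against 5.21 and 17.7. None of 4 macrophage markers was in the table. The part of these shifts in the results on Zfp genes was not tested. Fewer cells of a type, less RNA per cell and fewer ribosomes per mRNA cannot be told apart. Footprints were not set against mRNA levels here. In the paper, staining of sorted cells gave comparable shares of leptotene and zygotene cells in both genotypes.

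As a family, the Zfp genes held a slightly smaller share of the counted reads in *Eef1g*-cKO. Per 1000000 reads of a library, their reads summed to 6036 and 5736 in control and to 5404 and 5437 in *Eef1g*-cKO, with means of 5886 ± 212 and 5420 ± 23.0 (SD, n = 2), a ratio of 0.921. Both *Eef1g*-cKO libraries lay below both control libraries. The exact permutation test, two-sided, gave p = 0.333, which is the smallest that 2 libraries against 2 allow. The counted reads include those of *Rnu11*. With these taken out of the total, the sums were 6842 and 6296 against 5708 and 5884, a ratio of 0.882. The 5 members with the most reads held 19.3% of the family's reads, and without them the sums were 4872 and 4573 against 4515 and 4515. The members with over 5% shared stretches gave 744 and 718 against 527 and 586, and those with at most 5% gave 5287 and 5016 against 4868 and 4834.

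Single members moved both ways. On the log2(FPKM + 1) scale, which understates the change of low genes, 198 members had a mean of at least 1 FPKM and were tested with limma, in one fit with all 10475 genes that passed. The fold change was above 0 for 76 and below 0 for 122, with a median of −0.25 against −0.23 for all genes tested. Put at the value that 3 reads in each *Eef1g*-cKO library would give, wherever both had at most 3, the members' median was 0.09 and that of all genes 0.07. Called where the log2 fold change passed 1 in either direction with an unadjusted p under 0.05, 9 members rose, against 7.32% of all genes tested, and 15 fell, against 16.3%. By Benjamini-Hochberg adjusted p, 2 rose, against 2.87%, and 2 fell, against 4.97%. Every *Eef1g*-cKO library stood higher than every control library in 36 members, against 24.6% of genes, and lower in 62, against 37.7%. edgeR on the recovered reads tested 120 members and called 7 increased (8.75% of its genes) and 3 decreased (11.2%) by adjusted p. Of the 15 members that fell, 14 had 3 reads or fewer in each *Eef1g*-cKO library, while none of the 9 that rose did. At this depth a rise needs several *Eef1g*-cKO reads and a fall leaves few. This contrast therefore does not make the increases firmer than the decreases. Centring each library on its median moved the median of all genes by 0.21, to −0.02. Then 13 members rose and 11 fell, where 1157 and 1346 of all 10475 genes did. The number of members called also moved with the library left out. Their median was −0.20 without control replicate 1 and −0.28 without control replicate 2, against −0.25 and −0.22 for all genes. Without *Eef1g*-cKO replicate 1 and 2 it was −0.17 and −0.26, against −0.21 and −0.17. With each library left out in turn, only *Zfp160* and *Zfp367* of the 9 increases were called every time. Of the 15 decreases, only *Zfp513*, *Zfp869*, *Zfp462*, *Zfp688*, *Zfp82* and *Zfp873* were. Each of these decreases had 3 reads or fewer in every *Eef1g*-cKO library, where leaving out either changes little. Being called every time thus says little about how firm they are.

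**Figure D1:**
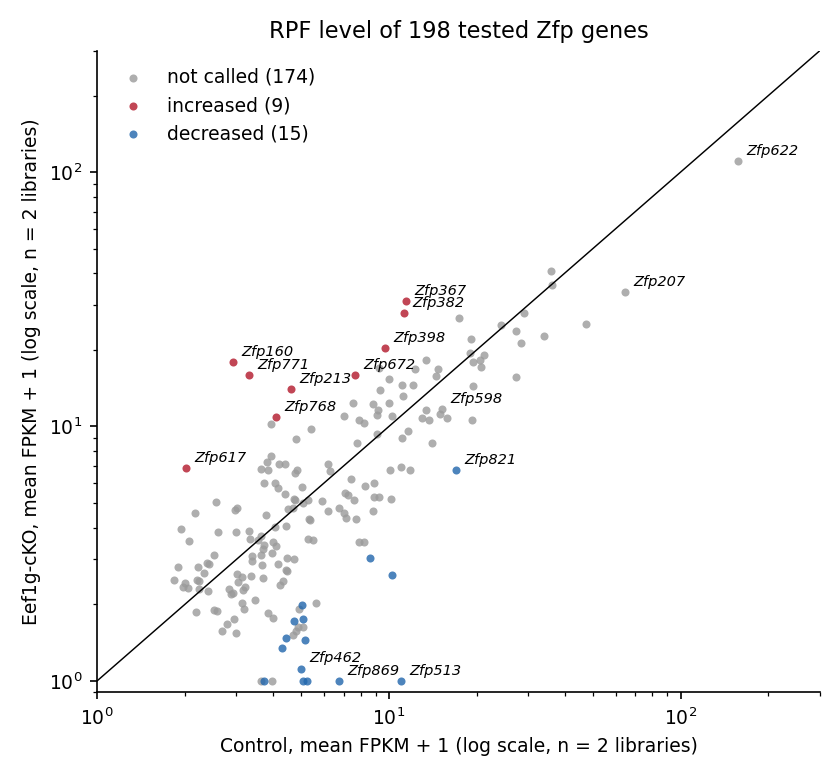
Mean FPKM + 1 of the 198 tested Zfp genes in control (x) and *Eef1g*-cKO (y), both on log axes and with 2 libraries each; the line marks equal levels. The 9 red genes rose and the 15 blue genes fell by unadjusted p, and *Zfp622* stands highest in both genotypes.

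**Figure D2:**
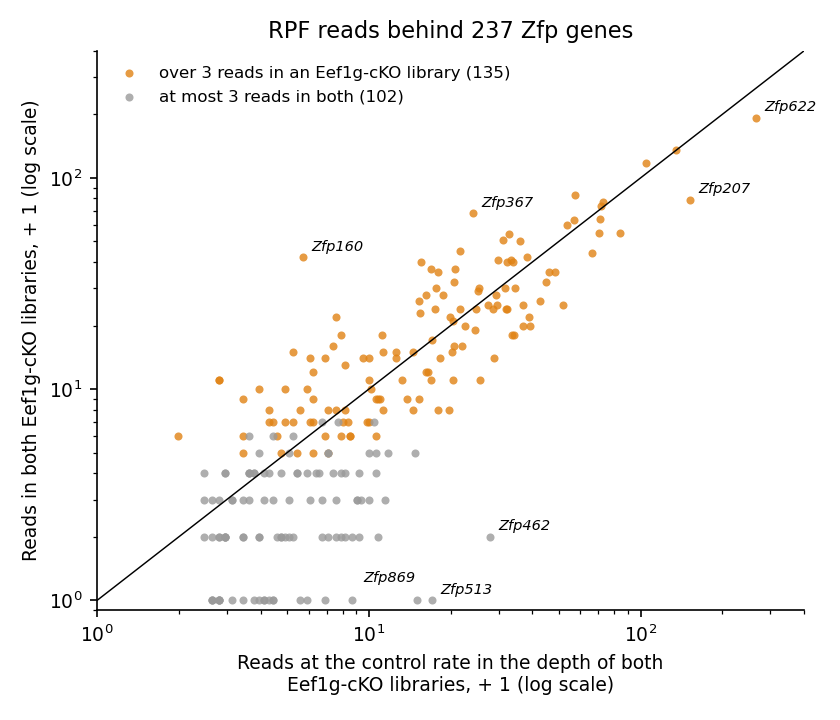
Reads of all 237 Zfp genes in both *Eef1g*-cKO libraries (y) against the reads that their control rate would give at that depth (x), both plus 1 and on log axes. The 102 grey genes had 3 reads or fewer in each of them, and *Zfp462*, *Zfp869* and *Zfp513* lie farthest right near the bottom.

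The increase that stood highest was *Zfp160*, a KRAB gene with 18 fingers on chromosome 17. Its reads were 20 and 9 in control and 14 and 27 in the far shallower *Eef1g*-cKO libraries, which is 2.13 and 1.71 FPKM against 16.5 and 17.4. The groups did not overlap, and replicates of a genotype lay close together. Its log2 fold change was 2.62 ± 0.39 (SE), with limma's adjusted p = 0.0307 and edgeR's adjusted p = 0.0002. *Zfp367*, a transcription factor with 2 fingers and no KRAB box, was the other increase by adjusted p. Control gave 93 and 49 reads and *Eef1g*-cKO 23 and 44, or 10.7 and 10.1 FPKM against 29.4 and 30.9. Its log2 fold change was 1.45 ± 0.27, with limma's adjusted p = 0.0401 and edgeR's adjusted p = 0.0020. For both genes each *Eef1g*-cKO library stood above each control library by a wide margin against the spread within a genotype. With a control library left out, limma's adjusted p rose above the threshold for each (0.192 and 0.232 for *Zfp160*, 0.192 and 0.226 for *Zfp367*, without control replicate 1 and 2), while the log2 fold change stayed between 2.52 and 2.73 and between 1.41 and 1.48.

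The other 7 increases passed by unadjusted p. *Zfp382*, a KRAB gene with 9 fingers, had 60 and 29 control reads against 11 and 28, or 11.0 and 9.55 FPKM against 22.4 and 31.3 (log2 fold change 1.29 ± 0.31). *Zfp398*, also with a KRAB box, had 11.0 and 6.44 FPKM against 16.7 and 21.8 (1.09 ± 0.38). *Zfp672*, without one, had 7.52 and 5.75 against 12.3 and 17.5 (1.05 ± 0.37). These 3 had more reads behind them than the next 4. *Zfp213*, with 5 fingers, went from 4.52 and 2.70 FPKM to 15.0 and 11.0 on 9 and 12 *Eef1g*-cKO reads (1.62 ± 0.43). *Zfp768* went from 2.69 and 3.54 to 9.94 and 9.82 on 5 and 9 reads (1.41 ± 0.40). *Zfp771* went from 2.30 and 2.35 to 21.8 and 7.97 on 6 and 4 reads (2.11 ± 0.56). *Zfp771* and *Zfp768* lie at chr7:127242996-127254872 and chr7:127342795-127345314, and no KRAB box was found in either. *Zfp617*, a KRAB gene with 75.6% of its stretches shared with another gene, had 0.82 and 1.23 FPKM against 7.57 and 4.16, on 5 reads in each *Eef1g*-cKO library (1.72 ± 0.51). By edgeR's adjusted p, *Zfp382* (0.0149), *Zfp213* (0.0302), *Zfp617* (0.0380), *Zfp398* (0.0386) and *Zfp672* (0.0386) were increased, *Zfp768* (0.0668) was not, and *Zfp771* had too few reads to be tested. Each of these 7 lost its limma call in some setting. Without control replicate 1 the unadjusted p was 0.0555 for *Zfp382*, 0.0517 for *Zfp398*, 0.101 for *Zfp672*, 0.0800 for *Zfp768*, 0.140 for *Zfp771* and 0.109 for *Zfp617*. Without control replicate 2 it was 0.0710, 0.146, 0.166, 0.0591, 0.138 and 0.0782 in the same order, and 0.0886 for *Zfp213*. *Zfp398* and *Zfp672* also lost it without *Eef1g*-cKO replicate 2 (0.0724 and 0.102) and *Zfp617* without *Eef1g*-cKO replicate 1 (0.0601).

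Among the decreases, *Zfp513* and *Zfp869* had no read in either *Eef1g*-cKO library. *Zfp513*, a gene with 8 fingers known from the retina, had 67 and 31 reads in control, or 10.9 and 9.04 FPKM, and that rate would have given 16.0 reads in the depth of both *Eef1g*-cKO libraries. Against 3 reads in each of those libraries its level was at least 2.38-fold lower, with limma's adjusted p = 0.0296 and edgeR's adjusted p = 0.0032. *Zfp869*, a KRAB gene with 12 fingers and 14.9% shared stretches, had 69 and 17 reads in control, or 7.97 and 3.52 FPKM, and was at least 1.93-fold lower, with limma's adjusted p = 0.0484 and edgeR's adjusted p = 0.0088. Both bounds start from the mean control level and leave out its spread and counting error. For *Zfp869*, 3 reads per *Eef1g*-cKO library stand for 2.97 FPKM on average, close to the 3.52 of control replicate 2. Without control replicate 1 and 2, limma's adjusted p was 0.0563 and 0.0514 for *Zfp513* and 0.0563 and 0.0509 for *Zfp869*, and with thinned reads *Zfp869* was no longer called (unadjusted p of 0.295). Neither gene was measured in *Eef1g*-cKO, so the size of both decreases has a lower bound, given the control mean, and no estimate. *Zfp462*, a large chromatin regulator with 33 fingers, had 109 and 55 control reads against 0 and 1. Its control rate was 26.8 times the *Eef1g*-cKO rate (exact 95% counting interval 4.75 to 1066), with limma's adjusted p = 0.0555 and edgeR's adjusted p = 0.0009, and it missed the fold threshold with a pseudocount of 5 FPKM (−0.81). *Zfp821*, with 2 fingers, was the one decrease measured on more than 3 reads, with 92 and 59 reads in control against 2 and 8, or 14.9 and 17.1 FPKM against 3.59 and 7.88. Its log2 fold change was −1.41 ± 0.44, with limma's adjusted p = 0.0992 and edgeR's adjusted p = 0.0850. It was no longer called without control replicate 1 (unadjusted p of 0.155) or 2 (0.193), without *Eef1g*-cKO replicate 1 (log2 fold change −0.94), with thinned reads (0.123) or in DESeq2 (0.0916). The other 11 that fell by unadjusted p were *Zfp688*, *Zfp82*, *Zfp296*, *Zfp873*, *Zfp109*, *Zfp949*, *Zfp383*, *Zfp286*, *Zfp566*, *Zfp710* and *Zfp14*, each with 2 reads or fewer in every *Eef1g*-cKO library, and none was called by adjusted p in limma or edgeR.

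**Figure D3:**
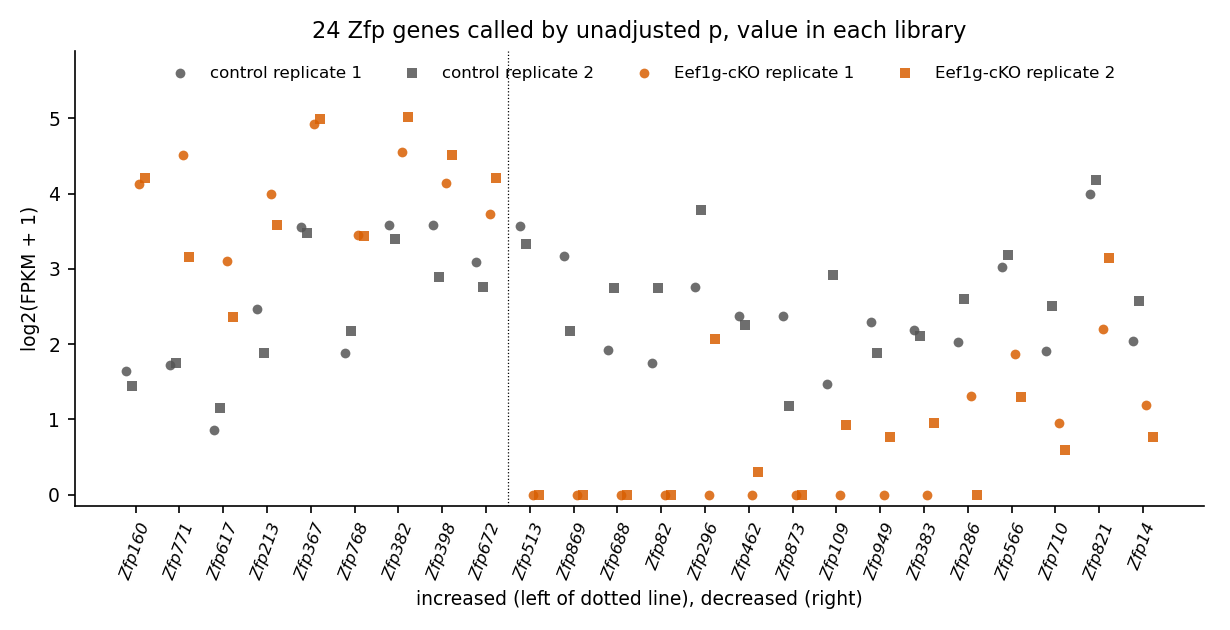
log2(FPKM + 1) in each library (circles replicate 1, squares replicate 2) of the 24 Zfp genes called by unadjusted p, in control (grey) and *Eef1g*-cKO (orange). The 9 increases stand left of the dotted line and the 15 decreases right of it, and points at 0 are libraries without a read.

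By role, the members that act on ribosomes and RNA were not called, 0 of 9 tested, against 7.32% of all genes that rose and 16.3% that fell by unadjusted p. Their reads summed to 857 and 1007 per 1000000 in control, against 634 and 650, with no overlap of the groups, and *Zfp622* and *Zfp207* held 908 and 605 of the 2126 reads in control replicate 1. The sums overlapped between genotypes in the other roles, with 159 and 160 against 143 and 221 for imprints and retroelements, 359 and 273 against 357 and 319 for testis and germ cells, and 910 and 785 against 759 and 865 for broad regulators. *Zfp598*, the ubiquitin ligase that senses collided ribosomes, had 91 and 78 control reads against 7 and 16, or 11.2 and 17.1 FPKM against 9.51 and 11.9. The groups overlapped, and its log2 fold change was −0.35 ± 0.36 (limma's adjusted p = 0.543); with the trend in GC content removed it was 0.10, and with reads thinned to the shallowest library 0.54. *Zfp622*, a factor that matures the large ribosomal subunit, was the member with the highest level, 131 and 183 FPKM in control against 112 and 107 (−0.50 ± 0.24, adjusted p = 0.214). *Zfp207*, which loads a spindle checkpoint protein onto kinetochores and also acts in splicing, stood next, with 605 and 319 control reads against 26 and 52. Its level was 65.6 and 61.9 FPKM against 31.2 and 34.2, and the control replicates differed from each other far less than from *Eef1g*-cKO. Its log2 fold change of −0.94 ± 0.22 missed the fold threshold, with limma's adjusted p = 0.0554 and edgeR's adjusted p = 0.0137. It passed both thresholds with FPKM rescaled without *Rnu11* (limma's adjusted p = 0.0471) and with the GC trend removed (−1.09, adjusted p = 0.0421), and by unadjusted p with thinned reads (−1.11) and without *Eef1g*-cKO replicate 2 (−1.01). *Zfp830*, a spliceosome-associated protein, had 18.9 and 17.6 FPKM against 10.9 and 8.23 (−0.88 ± 0.32, adjusted p = 0.133). *Zfp326*, of a complex that couples elongation and splicing, had 23.6 and 31.1 against 19.7 and 20.7 (−0.40 ± 0.27). *Zfp346*, which binds double-stranded RNA, overlapped between genotypes (0.25 ± 0.39), as did *Zfp593*, a factor of the large ribosomal subunit, and *Zfp277*, each with at most 1 read per *Eef1g*-cKO library. *Zfp106*, an RNA-binding protein, had 3.37 and 2.06 FPKM against 4.91 and 5.12 (0.72 ± 0.46, adjusted p = 0.336), and passed by unadjusted p with thinned reads (1.05). Without *Eef1g*-cKO replicate 1, *Zfp830* (−1.06) and *Zfp277* (−1.66) passed by unadjusted p, and without *Eef1g*-cKO replicate 2 *Zfp593* did (−2.07).

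Members known for imprints and retroelements were not called either, 0 of 4 tested, against the same 7.32% and 16.3%. *Zfp445*, which guards imprints, had 251 and 91 control reads against 15 and 47, or 16.4 and 10.6 FPKM against 10.8 and 18.6. *Zfp568*, which represses a placental *Igf2* transcript, had 6.79 and 9.35 against 7.46 and 12.6. Both overlapped between genotypes, with log2 fold changes of 0.10 ± 0.40 and 0.26 ± 0.42. *Zfp809*, known for silencing retroviral DNA, had 2.68 and 6.17 FPKM against 10.6 and 6.98 on 5 and 6 *Eef1g*-cKO reads (0.91 ± 0.51, adjusted p = 0.274). *Zfp932*, which binds endogenous retroviral elements and shares 76.0% of its stretches with another gene, had 2 and 16 control reads and none in *Eef1g*-cKO, where its control rate would have given 2.94 reads. It passed by unadjusted p without control replicate 1 (0.0015), with thinned reads (0.0085) and with the GC trend removed (0.0461). *Zfp819*, too low to be tested, had 7 and 3 reads in control and none in *Eef1g*-cKO.

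Of 8 tested members known from testis or germ cells, 1 fell, against 16.3% of all genes. *Zfp296*, linked to pluripotency, had 22 and 27 control reads against 0 and 2, a ratio of rates of 4.01 (exact 95% counting interval 1.05 to 34.0), with limma's adjusted p = 0.131. It was no longer called in 8 settings, where the unadjusted p was 0.164 without control replicate 1, 0.303 without control replicate 2, 0.0503 without *Eef1g*-cKO replicate 1, 0.208 with thinned reads, 0.158 in DESeq2, 0.0732 in unfiltered edgeR, 0.0857 with a pseudocount of 0.1 FPKM and 0.0540 with the GC trend removed. *Zfp42*, the pluripotency marker Rex1, was higher in level, 18.4 and 17.6 FPKM against 12.4 and 24.5, and the groups overlapped (−0.04 ± 0.38). *Zfp318*, a large protein with 2 fingers, had 13.6 and 8.56 FPKM against 14.8 and 12.3 (0.30 ± 0.36). *Zfp105* had 8.05 and 8.29 against 8.91 and 12.2 (0.32 ± 0.36), and *Zfp39* had 12.1 and 13.4 against 10.3 and 8.82 (−0.38 ± 0.33). These last 2 did not overlap between genotypes but differed by about 1 SE. *Zfp35*, *Zfp148* and *Zfp628* overlapped, with log2 fold changes of −0.04 ± 0.64, 0.13 ± 0.50 and 0.36 ± 0.61. The direction of *Zfp42* and *Zfp35* turned when libraries were centred on their medians (0.17 for both).

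Of 12 tested broad transcription regulators, *Zfp462* fell and the rest were not called, against 16.3% of all genes that fell. *Zfp217*, an oncogenic transcription factor, had 38.4 and 32.1 FPKM in control against 29.8 and 40.3, the fourth highest control level of the family, and its groups overlapped (−0.02 ± 0.27, and 0.19 after centring). *Zfp263* had 13.6 and 19.2 against 24.8 and 26.5 (0.64 ± 0.30, adjusted p = 0.208), and *Zfp592* had 3.71 and 1.98 against 6.74 and 4.71 (0.83 ± 0.49, adjusted p = 0.298). *Zfp407* had 11.3 and 11.3 against 14.1 and 17.7 (0.45 ± 0.31). These 3 stood higher in both *Eef1g*-cKO libraries. *Zfp143*, which binds promoters and is tied to chromatin loops, had 8.70 and 12.9 against 7.41 and 4.07 (−0.83 ± 0.45), *Zfp335* had 13.1 and 13.1 against 8.80 and 6.44 (−0.72 ± 0.35) and *Zfp219* had 6.20 and 9.58 against 4.04 and 5.91 (−0.56 ± 0.44). These 3 stood lower in both, also without passing the test, except that *Zfp143* passed by unadjusted p without *Eef1g*-cKO replicate 1 (−1.20). *Zfp281*, *Zfp687*, *Zfp644* (0.12 after centring, −0.09 before) and *Zfp91* overlapped, with log2 fold changes between −0.41 and 0.41, and *Zfp503* was too low to be tested. *Zfp428* and *Zfp512* complete the 5 highest members in control. *Zfp428* had 33.5 and 59.5 FPKM against 32.8 and 16.0 (−0.93 ± 0.44, adjusted p = 0.213; without *Eef1g*-cKO replicate 1 −1.43, adjusted p = 0.0463), and *Zfp512* had 33.6 and 36.2 against 51.5 and 28.3 (0.13 ± 0.33).

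A search of the first 200 residues found a KRAB A box in 110 of 236 members. A box lying further in, or matching fewer than 10 of the 12 residues, was counted as absent. The set without the box may therefore hold some KRAB members. Those with the box had a median of 12 fingers and a median GC content of 42.8% at the last base of codons, against 8 fingers and 59.5% without it. They were also lower in control, with a median of 2.38 against 4.49 FPKM, so 81 of them were tested, and 116 of the 126 without it. With the box, 4 rose and 9 fell by unadjusted p and the median log2 fold change was −0.36, and without it, 5 rose, 6 fell and the median was −0.19, where 7.32% of all genes rose and 16.3% fell. All 9 decreases with the box rested on 3 reads or fewer per *Eef1g*-cKO library. At the bound of 3 reads the medians were 0.24 with the box and −0.01 without it. That bound lifts members with few *Eef1g*-cKO reads, which were more frequent with the box. More than 3 reads in an *Eef1g*-cKO library were found for 41 of 110 with the box and 93 of 126 without it. Among members with a mean of at least 5 FPKM the first set stood 0.45 above the second, but high *Eef1g*-cKO values alone can reach that mean. The order of the sets thus depended on how low genes were treated, and which order holds was not tested. Within the family, the log2 fold change ran weakly with the number of fingers (Spearman's rho −0.05), GC content (−0.05), the shared share (−0.08) and gene length (0.17) over 197 or 198 members, which share libraries and so are not independent.

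**Figure D4:**
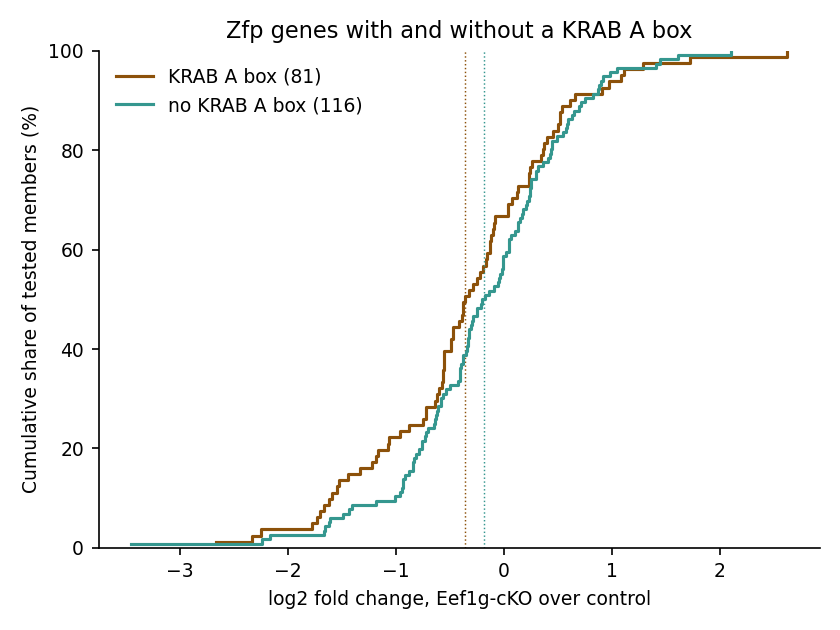
Cumulative share of tested Zfp genes (y, percent) by log2 fold change of *Eef1g*-cKO over control (x), with a KRAB A box (brown, 81) and without (green, 116). Dotted lines mark the medians, −0.36 and −0.19, and the curves lie apart mainly among decreased genes.

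By place, 61 members lay on chromosome 7, where 48 were tested, 3 rose and 8 fell by unadjusted p, and 24 on chromosome 17, where 19 were tested, 2 rose and none fell, against the 7.32% and 16.3% of all genes. One cluster of 8 members at chr7:29908280-30140758 (GRCm38, 232 kb), singled out after its values had been seen, held calls of both directions. *Zfp383*, *Zfp14*, *Zfp82* and *Zfp566* fell (log2 fold changes −1.67, −1.33, −2.25 and −1.53), all with at most 1 read per *Eef1g*-cKO library, and *Zfp382* at its end rose (1.29). *Zfp568* and *Zfp260* between them were not called (0.26 and −0.01), and *Zfp74* was too low to be tested. *Zfp82* shares all of its stretches (100%) with another gene model, so its reads are uncertain. The cluster's 7 KRAB genes thus had from 0 to 37 reads in *Eef1g*-cKO replicate 2.

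The genes through which KRAB zinc finger proteins act were in the table, 14 of 14. Their median log2 fold change was 0.71, against −0.23 for all genes tested. At the fold threshold none rose by unadjusted p, against 7.32% of all genes, and 1 fell, against 16.3%. None was called by limma's adjusted p, against 2.87% that rose and 4.97% that fell. In edgeR, which tested 13 of them, none was increased, against 8.75% of its genes, and 1 was decreased, against 11.2%. Of the 14 corepressor genes, 10 stood higher and 4 lower in every *Eef1g*-cKO library than in every control library, against 24.6% and 37.7% of all genes. *Trim28*, the scaffold that KRAB boxes bind, had 317 and 374 FPKM in control against 464 and 509 (0.50 ± 0.21, adjusted p = 0.177). *Setdb1*, the methyltransferase, had 94.9 and 91.5 against 73.8 and 91.0 (−0.18 ± 0.21, and 0.03 after centring), and its partner *Atf7ip* had 42.3 and 38.8 against 64.1 and 66.6 (0.68 ± 0.21). The HUSH complex genes, which act in silencing with SETDB1, stood higher, *Mphosph8* at 103 and 90.7 against 205 and 145 (0.83 ± 0.24), *Pphln1* at 33.9 and 34.2 against 61.8 and 63.8 (0.86 ± 0.21) and *Fam208a* at 18.4 and 8.77 against 24.8 and 20.1 (0.76 ± 0.41). *Morc2a* (0.73 ± 0.20) and *Smarcad1* (0.79 ± 0.24), both chromatin remodelling ATPases, and *Cbx1* (0.78 ± 0.25), an HP1 protein, stood higher as well. Limma's adjusted p of the genes named as higher ran from 0.0617 for *Pphln1* to 0.260 for *Fam208a*. By edgeR the adjusted p was 0.0045 for *Pphln1*, 0.0068 for *Mphosph8*, 0.0087 for *Morc2a* and 0.0111 for *Smarcad1*. It was 0.0175 for *Atf7ip*, 0.0215 for *Cbx1*, 0.0510 for *Trim28* and 0.0901 for *Fam208a*. None of them passed the fold threshold in edgeR, where *Pphln1* stood highest (0.96). The other HP1 genes were *Cbx5* (0.18 ± 0.29) and *Cbx3* (−1.32 ± 0.62, on 1 and 2 *Eef1g*-cKO reads), *Atf7ip2* rested on 4 and 12 reads there (1.42 ± 0.74), and *Chd3*, a remodeller of the NuRD complex, had −0.67 ± 0.31. *2810474O19Rik*, which acts with SETDB1, was the one that fell, with 102 and 37 control reads against 1 and 4 (−1.60 ± 0.51, limma's adjusted p = 0.104); without control replicate 1, with thinned reads or with a pseudocount of 5 FPKM it was no longer called. After centring on the library medians 2 of the 14 rose, *Mphosph8* (1.04) and *Pphln1* (1.08), where 1157 of all 10475 genes did. By unadjusted p, *Atf7ip2* (2.42) and *Fam208a* (1.25) rose and *Cbx3* (−2.10) fell without control replicate 1, *Cbx1* (1.04) rose without control replicate 2, *Atf7ip2* (1.74) without *Eef1g*-cKO replicate 1 and *Mphosph8* (1.08) without *Eef1g*-cKO replicate 2. The spermatocyte markers given above were also higher in *Eef1g*-cKO, and their part in these values was not tested.

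**Figure D5:**
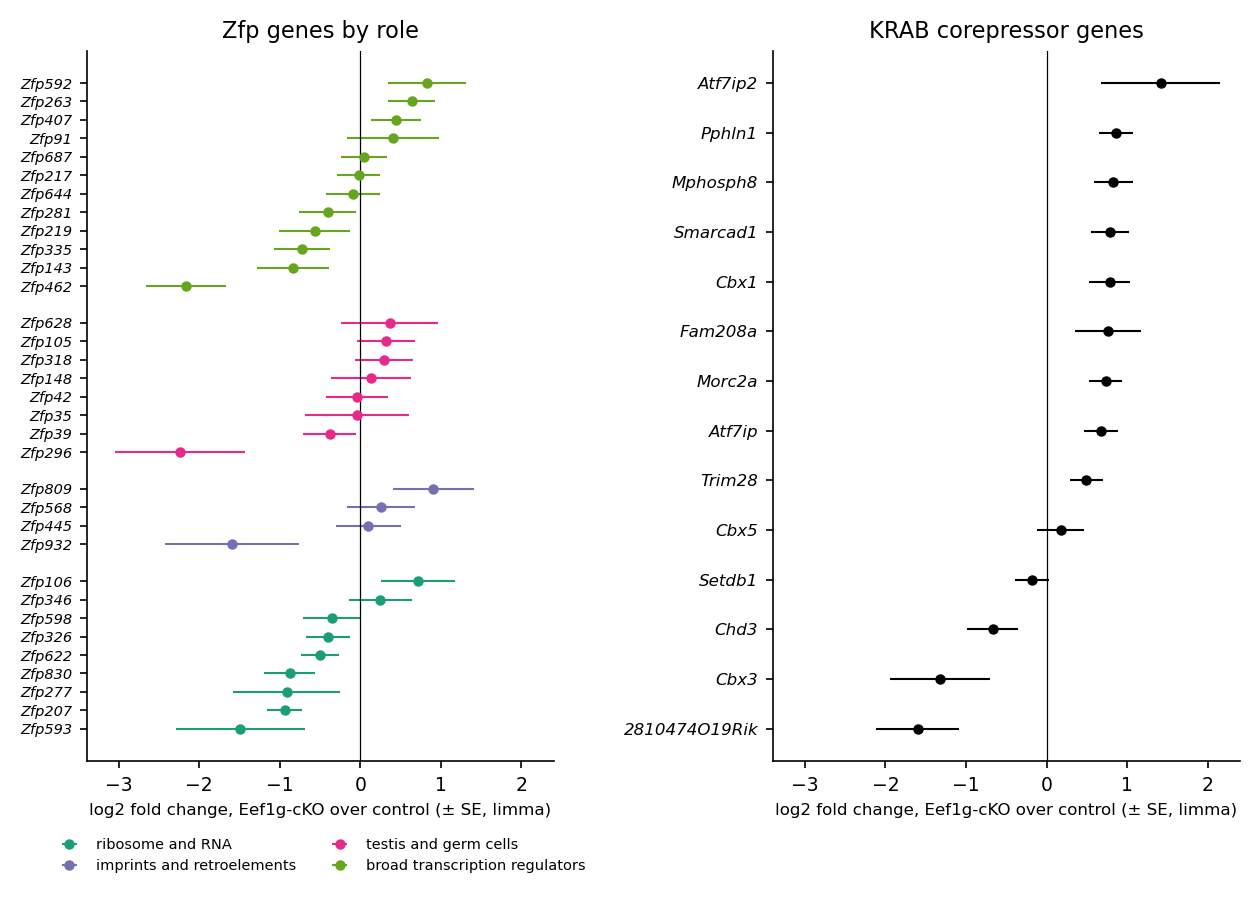
log2 fold change of *Eef1g*-cKO over control with its SE from limma (2 libraries per genotype) for tested Zfp genes by role (left, one colour per role) and for the 14 KRAB corepressor genes (right). *Zfp296*, *Zfp462* and *2810474O19Rik* lie below −1 with an unadjusted p under the threshold, and 10 of the 14 corepressor genes lie above 0.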

How the data were processed

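Ribo-seq was analysed in 2 control and 2 *Eef1g*-cKO libraries. The authors deposited one table with FPKM, read counts scaled to the length of the gene and to 1000000 counted reads, and with normalized counts, a signal in which each count is divided by a size factor of its library. It also holds gene lengths and the authors' own mean, fold changes with errors, test score, p-values and adjusted p-values, which were not used. The submitters' processing notes name cutadapt, Bowtie, STAR and the builds mm10 and hg38, with no role; the counter and annotation are not given in the sources used here. From the deposited values, 100% came out within 0.001 of a whole read, and every listed gene had at least 10 reads over all libraries.

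Differences were tested with limma 3.58.1 (R 4.3.3; lmFit, eBayes with a trend) on log2(FPKM + 1), in genes averaging 1 FPKM or more over the 4 libraries. Calls needed p under 0.05 and a log2 fold change beyond 1 in either direction, with p unadjusted or Benjamini-Hochberg adjusted over all genes tested. edgeR 4.0.16 (quasi-likelihood, filterByExpr, TMM) and DESeq2 1.42.0 on the recovered reads were alternatives, next to other pseudocounts, filters, scalings, priors, thinning, a replicate block and leaving out each library. The main limma fit, edgeR with filterByExpr and TMM, and DESeq2 were run on simulated counts, and the other settings were not. A gene without a read was bounded at 3 reads per library (95% confidence), and the mean control level was set against that value. Intervals and bounds cover counting error only, since no molecular identifiers are described, and the bounds cover only that of *Eef1g*-cKO.

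Coding sequences were those of GENCODE M21 on GRCm38 (236 members), read from the RefSeq GRCm38.p6 genome; 236 symbols matched RefSeq and 1 an older symbol. A KRAB A box was called where 10 of 12 key residues matched in the first 200 residues. Computations used Python 3.11.15, numpy 2.4.6, scipy 1.17.1 and pandas 2.3.3.

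The members and lists were chosen with earlier results of these data known. Named members were those of 4 role lists, the 5 highest in control, the 5 largest increases and decreases called that averaged 5 FPKM or more with no overlap of genotypes, and those called by adjusted p. *Zfp385a*, on a role list, has a letter after its number and is no member. The remaining called members are named for completeness.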

Additional observations from a re-analysis of the deposited data

How the results depend on the processing

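The median log2 fold change of the Zfp genes was below 0 in every fit run, turned to 0.088 with members of at most 3 reads per *Eef1g*-cKO library put at 3 reads, and its distance from the median of all genes tested stayed between −0.12 (GC trend removed) and 0.06 (without control replicate 1). It was −0.36 with a pseudocount of 0.1 FPKM, −0.12 with 5 FPKM, −0.33 without a filter, −0.040 with a filter at a mean of 5 FPKM, −0.033 with libraries centred on their medians, −0.34 with FPKM rescaled without *Rnu11*, −0.026, −0.022 and −0.31 in edgeR (TMM, RLE and unfiltered), −0.30 in DESeq2, −0.22 with reads thinned to the shallowest library, −0.20 without members over 5% shared, and −0.17 to −0.28 with 1 library left out. Removing the trend with GC content, an alternative added after the data had been seen like those on shared stretches and on 3 reads, gave −0.28. Increases by unadjusted p numbered 5 with a pseudocount of 5 FPKM, where 496 of all 10475 genes rose. Decreases numbered 3 with that pseudocount, 28 without a filter, 2 with a filter at 5 FPKM, 6 in edgeR with either scaling, 4 in DESeq2 and 8 to 25 with a library left out. Increases by adjusted p numbered 0 with a pseudocount of 0.1 FPKM, without a trend in the prior variance and with thinned reads. They numbered 7 in edgeR with either scaling, 6 unfiltered and 5 with the GC trend removed. Of all genes, 29 of 10475 rose with a pseudocount of 0.1 FPKM. In edgeR 705 (TMM) and 700 (RLE) of 8056 rose and 689 of 11598 unfiltered, and 394 of 10117 with the GC trend removed. Decreases by adjusted p numbered 0 under the same 3 settings and with a filter at 5 FPKM, 1 with a pseudocount of 5 FPKM, without a filter, with centred libraries and without shared members, 4 in unfiltered edgeR and 0 to 11 with a library left out; limma adjusted no gene of the whole table below the threshold with a control library left out, with thinned reads or without the trend. The gap between members with and without a KRAB box was −0.37, −0.059, −0.39 and −0.38 with pseudocounts of 0.1 and 5 FPKM, in unfiltered edgeR and in DESeq2, −0.55 with the GC trend removed, −0.19 to −0.30 with a library left out, and turned to 0.45 with a filter at 5 FPKM. The family's log2 ratio was −0.18 without *Rnu11*, −0.065 without its 5 members with the most reads, and −0.082 to −0.16 with a library left out. Corepressor genes that rose by unadjusted p numbered 2 after centring, where 1157 of all 10475 genes rose. Those that fell numbered 0 with a pseudocount or filter of 5 FPKM, where 1001 of 10475 and 1064 of 7080 of all genes fell. With the GC trend removed 2 fell, where 1440 of all 10117 genes did. By adjusted p 1 rose after centring, where 521 of all 10475 genes rose. In each edgeR fit 1 fell, where 904 (TMM) and 880 (RLE) of 8056 and 876 of 11598 (unfiltered) did.

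The cause of these moves was not tested. Genes near 0 turned. *Zfp598* was 0.54 thinned and 0.10 with the GC trend removed. With reads thinned, *Zfp568*, *Zfp148*, *Zfp407*, *Zfp91* and *Zfp512* became −0.022, −0.29, −0.030, −0.46 and −0.019, and with the GC trend removed *Zfp445*, *Zfp148* and *Cbx5* became −0.22, −0.16 and −0.20. *Zfp35* became 0.0079 with a pseudocount of 5 FPKM, 0.17 after centring and 0.019 in DESeq2. *Zfp42* became 0.17 after centring, 0.19, 0.20 and 0.19 in edgeR (TMM, RLE, unfiltered), 0.16 in DESeq2, 0.27 thinned and 0.13 with the GC trend removed. *Zfp217* became 0.19 after centring, 0.086, 0.089 and 0.086 in edgeR, 0.070 in DESeq2 and 0.27 with the GC trend removed. *Zfp644* and *Setdb1* became 0.12 and 0.031 after centring, and *Zfp687* −0.010 without *Rnu11*. With a library left out, ranges that crossed 0 were −0.056 to 0.55 for *Zfp346*, −0.26 to 0.47 for *Zfp445*, −0.086 to 0.60 for *Zfp568*, −0.74 to 0.66 for *Zfp35*, −0.50 to 0.42 for *Zfp42*, −0.0096 to 0.60 for *Zfp318*, −0.22 to 0.95 for *Zfp628*, −0.16 to 0.43 for *Zfp148*, −0.23 to 0.19 for *Zfp217*, −0.12 to 0.22 for *Zfp687*, −0.38 to 0.19 for *Zfp644*, −0.0071 to 0.82 for *Zfp91* and −0.29 to 0.55 for *Zfp512*.

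Same-numbered libraries did not deviate together (r = −0.01 over 10475 genes), so the numbers were not taken to pair the samples. With the replicate block, 9 Zfp genes rose and 15 fell by unadjusted p and 3 rose and 3 fell by adjusted p, against 2 and 2 without it. Of all 10475 genes, 772 rose and 1825 fell by unadjusted p with the block, and 424 rose and 822 fell by adjusted p. With the block and the GC trend removed, 6 Zfp genes rose by adjusted p, where 470 of all 10117 genes did. The median was then −0.28, the KRAB gap −0.55, *Zfp598* stood at 0.10, *Zfp445* at −0.22, *Zfp42* at 0.13, *Zfp148* at −0.16, *Zfp217* at 0.27 and *Cbx5* at −0.20. In that fit 2 corepressor genes fell by unadjusted p, where 1464 of all 10117 genes did. Depth limits the decreases, since 102 members had 3 reads or fewer in each *Eef1g*-cKO library.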

Other observations

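Related finger families were read from the same fit. Of 33 tested Zbtb genes, which pair fingers with a BTB domain, 3 rose and 4 fell by unadjusted p in limma, with a median log2 fold change of −0.24, and of 17 tested Zscan and Zkscan genes, which carry a SCAN domain, 2 rose and none fell, with a median of 0.01, where 7.32% of all tested genes rose and 16.3% fell. Their reads summed to 951 and 909 per 1000000 in control against 804 and 980 in *Eef1g*-cKO for the Zbtb genes, and to 503 and 379 against 478 and 532 for the Zscan and Zkscan genes, and both sums overlapped between genotypes. Whether these families differed from the Zfp genes was not tested.

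Between replicates, levels of the 198 tested Zfp genes gave a Spearman's rho of 0.760 in control and 0.765 in *Eef1g*-cKO, and a Pearson's r of 0.824 and 0.770.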
